A study of Mus musculus with 2 samples.

Results

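The 5 miRNA genes described here are known from blood vessels and were measured in the embryonic forebrain of the mouse. Mir126a, Mir221 and Mir222 are known from endothelium, and Mir143 and Mir145a from the smooth muscle and pericytes of the vessel wall. The genes were chosen by name, for where they are known to be expressed, and all 5 were among the 1973 miRNA genes counted. Small RNA under 30 nt was sequenced from whole forebrain tissue of B6NCrl embryos of mixed sex at 10.5 days of development. The samples form 1 group of 2 libraries, replicate 1 pooled from 69 embryos and replicate 2 from 51 embryos, with no genotype or treatment to compare. Gene-strand counts came to 3256070 in replicate 1 and 3574530 in replicate 2, and levels are given as CPM, which scales each library to its sum of gene counts. Tissue was not sorted, so a lower level cannot tell fewer vessel cells from less miRNA per cell. Levels of different genes are compared as counts of reads. Whether different miRNAs were captured equally well in the libraries was not tested.

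The vessels of the forebrain are built in steps. A plexus of endothelial tubes first surrounds the neural tube, sprouts then enter the neuroepithelium, and pericytes and smooth muscle cells cover the tubes as they mature. miR-126 is made from an intron of Egfl7, a gene of endothelial cells, and in mouse and zebrafish it supports signalling by vascular endothelial growth factor and the integrity of the vessel by repressing Spred1. miR-221 and miR-222 repress the cell cycle inhibitor p27 and, in human endothelial cells, the receptor KIT. They are also made by many dividing cells and are less bound to the endothelium than miR-126. miR-143 and miR-145 are made together in smooth muscle under control of serum response factor and myocardin, and they favour its contractile state.

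Mature sequences were at hand for 3 of the 5 members. They are shown because a read is credited to a hairpin through such a sequence, and because Mir221 and Mir222 share the part that pairs with targets. The RefSeq entries used here (GRCm38.p6) did not include Mir143 or Mir145a, and further mature sequences of the other members may exist. Capitals mark the seed, bases 2 to 8.
miR-126a-3p: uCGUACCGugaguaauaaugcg
miR-221-3p: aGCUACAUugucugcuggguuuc
miR-222-3p: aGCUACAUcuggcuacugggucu
miR-221-5p: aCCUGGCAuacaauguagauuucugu

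The 3p sequences of Mir221 and Mir222 begin with the same 8 bases and have the same base at 11 of 23 positions, so the seed is shared and the rest is mostly not. Among 1738 mature sequences of the RefSeq table the seed of miR-221-3p and miR-222-3p also occurred in Mir1928, which had 0 counts in both libraries. With 0 counts, up to 3 counts could have been missed, or 0.921 CPM in replicate 1 and 0.839 CPM in replicate 2. No other entry had the seed of miR-126a-3p. Each of the 4 sequences above was contained in 1 RefSeq hairpin, and the deposited counts credited no gene with reads that mapped to several places.

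The hairpin of Mir126a carries a further annotated miRNA on its other strand. Mir126a (ENSMUSG00000065540.1) lies on the plus strand of chromosome 2 at positions 26591357 to 26591429 of mm10. Mir126b lies on the minus strand at 26591363 to 26591420, wholly inside it, so that its 58 nt are the reverse complement of part of the 73 nt of Mir126a. Capitals mark the mature miRNAs among the RefSeq entries used here, so lower case does not mean that no mature miRNA is made there. Both hairpins are written 5′ to 3′ on their own strand.
Mir126a hairpin: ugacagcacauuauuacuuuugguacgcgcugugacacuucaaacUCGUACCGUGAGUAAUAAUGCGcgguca
Mir126b hairpin: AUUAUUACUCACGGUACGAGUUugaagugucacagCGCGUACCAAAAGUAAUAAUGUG

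Mir126b was not counted as a gene of its own, and the strand of the reads at Mir126a shows what it could hold. Reads on the strand of Mir126a numbered 94521 in replicate 1 and 114134 in replicate 2. Opposite-strand reads at the same hairpin numbered 16 and 19, or 0.0169% of the reads at this place in replicate 1 and 0.0166% in replicate 2. Over all genes together the opposite strand held 3.31% of the reads in replicate 1 and 3.62% in replicate 2. Reads at the hairpin were therefore almost all from the strand of Mir126a. Mir221, Mir222, Mir143 and Mir145a had no opposite-strand read in either library, as did 368 of the 401 genes that averaged at least 10 counts and are the tested genes below.

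Mir126a is usually intronic. Of 9 Egfl7 transcripts in GENCODE M21 that span the hairpin, 8 have it in an intron, and in Egfl7-206, a transcript with a retained intron, it lies inside an exon. It also lies in an intron of Gm20532, which runs through Egfl7 on the same strand. Mir221 (ENSMUSG00000065422.1, positions 19146294 to 19146388) and Mir222 (ENSMUSG00000065471.1, 19146893 to 19146971) lie on the minus strand of chromosome X. No annotated gene spans either of them, and 504 nt separate the pair. Mir143 (ENSMUSG00000065445.2, 61649196 to 61649258) and Mir145a (ENSMUSG00000065592.1, 61647825 to 61647894) lie on the minus strand of chromosome 18 with 1301 nt between them. Neither is inside an annotated gene. The long non-coding RNA Carmn, the human form of which is known as the host of this pair, ends 366 nt before Mir143. The positions of these last hairpins come from later versions of the identifiers than the ones counted, so the counted intervals may differ from them.

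**Figure D1:**
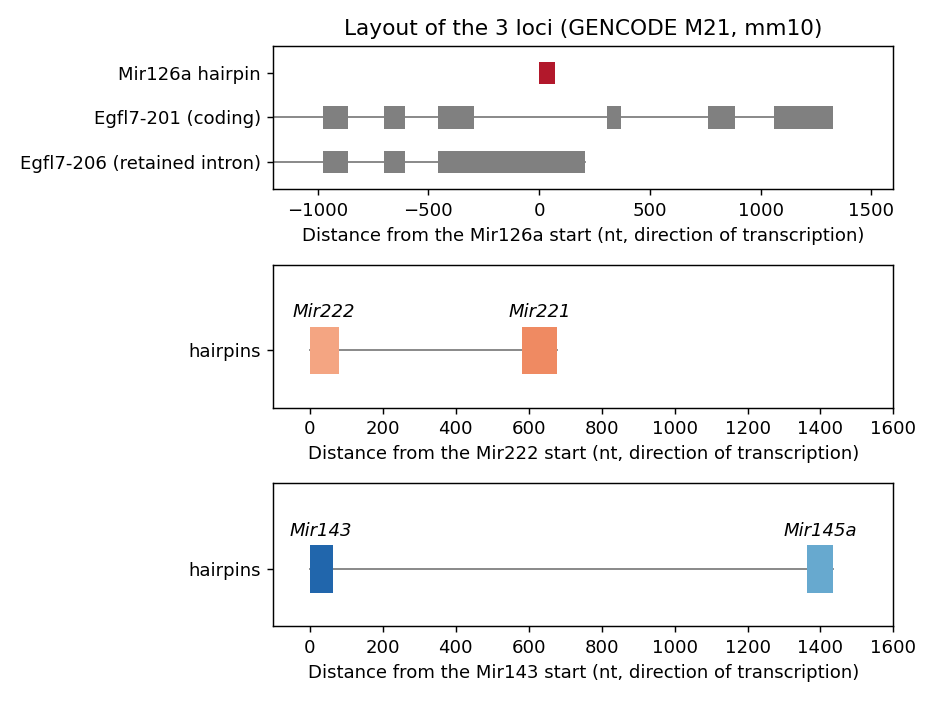
Layout of the 3 loci along the direction of transcription, with distance in nt from the start of the first hairpin on each horizontal axis. Coloured boxes are hairpins and grey boxes are exons of 2 Egfl7 transcripts; Mir126a lies between exons of the coding transcript, 504 nt separate Mir222 from Mir221 and 1301 nt separate Mir143 from Mir145a.

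Levels of the 5 genes spanned a wide range. Mir126a, the endothelial miRNA, had 29029 CPM in replicate 1 and 31930 CPM in replicate 2. Mir143 of the vessel wall had 3842 CPM in replicate 1 and 3284 CPM in replicate 2. Mir221 had 564 and 759 CPM in replicates 1 and 2. Mir126a thus stood far above Mir143, and Mir143 far above Mir221, in both libraries. Mir222 had 390 and 471 CPM in replicates 1 and 2. Mir145a had 53.7 and 57.1 CPM, from 175 and 204 counts, and was the only member with fewer than 1000 counts in a library. No library's value for a lower gene reached the value of a higher one, and Mir145a was 7.26-fold below Mir222 in replicate 1 and 8.25-fold below it in replicate 2.

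The order Mir126a, Mir143, Mir221, Mir222, Mir145a held in both libraries. Means were 30479 ± 2051 CPM for Mir126a, 3563 ± 395 for Mir143, 661 ± 138 for Mir221, 430.4 ± 57.1 for Mir222 and 55.4 ± 2.4 for Mir145a (SD, n = 2). Dividing each level by the length of the hairpin left the order as it was, with 418 CPM per nt for Mir126a, 56.5 for Mir143, 6.96 for Mir221, 5.45 for Mir222 and 0.792 for Mir145a. Reads of this size cover a mature miRNA and not a whole hairpin, so CPM is the scale used elsewhere. The closest neighbours in the order were Mir221 and Mir222, where the lower Mir221 value of 564 CPM stood above the higher Mir222 value of 471 CPM. With 2 libraries an exact two-sided permutation test of any step of the order, by turning the signs of its log2 differences, cannot give a p under 0.5.

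**Figure D2:**
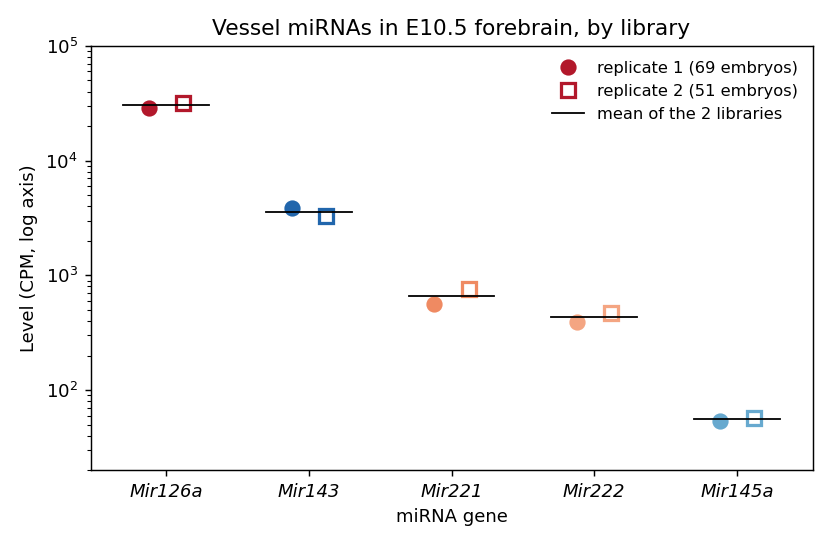
Level of each vessel miRNA in CPM on a log axis, by gene. Filled circles are replicate 1, open squares are replicate 2 and horizontal lines are their mean; the 2 libraries lie close together for every gene, and the genes run from 30479 CPM for Mir126a to 55.4 CPM for Mir145a.

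Mir126a supplied most of the counts of the group. It held 85.7% of the summed counts of the 5 genes in replicate 1 and 87.5% in replicate 2. Its own share of all gene counts was 2.90% in replicate 1 (95% exact Clopper-Pearson interval 2.88 to 2.92) and 3.19% in replicate 2 (3.17 to 3.21). Intervals of this kind cover counting error only. Mir143 came next with 11.3% and 8.996% of the counts of the group in replicates 1 and 2. Without Mir126a, the other members together held 0.485% of all gene counts in replicate 1 and 0.457% in replicate 2.

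Among all counted genes the members stood at very different ranks. Mir126a ranked 6 in replicate 1 and 4 in replicate 2, among the highest miRNA genes by credited reads. Reads that fit several loci, 30.1% and 28.8% of all reads in replicates 1 and 2, are missing from all ranks here. How the genes would rank with those reads was not tested. Mir143 ranked 52 and 55, Mir221 ranked 130 and 116, and Mir222 ranked 151 and 140 in replicates 1 and 2. Mir145a ranked 247 and 244, and 38.4% of the 401 tested genes lay below it. The median level of the members was 661 CPM, against 161 CPM over those 401 genes.

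**Figure D3:**
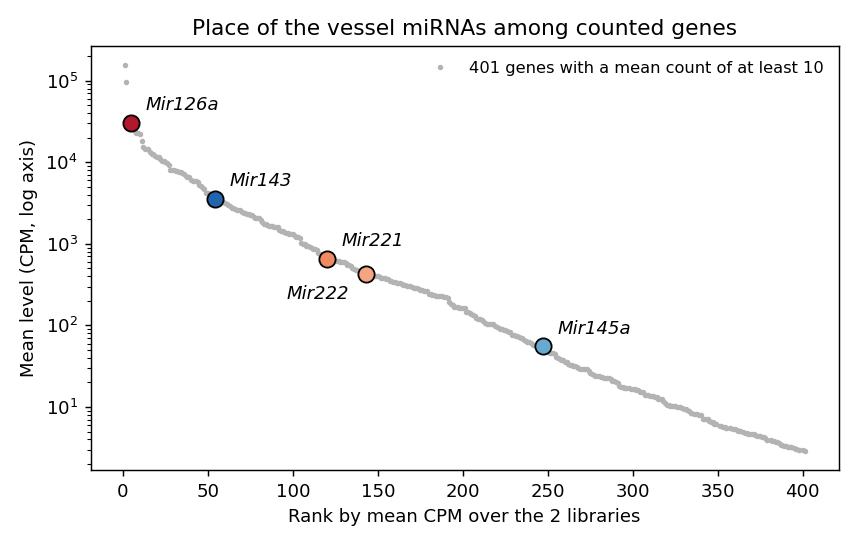
Mean CPM over the 2 libraries on a log axis, against rank, for the 401 genes averaging at least 10 counts. Reads that fit several loci are missing from levels and ranks. Coloured points are the vessel miRNAs; Mir126a stands at rank 5 and Mir145a at rank 247, with the others between them.

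Genes nearest in level were named by rank, as the genes just above and just below each member, with the difference of mean log2(CPM + 1) over 2 libraries as the measure. Mir126a stood between Mir130a (0.07 above) and Mir99a (0.07 below). Mir143 lay between Mir324, which exceeded it by 0.0042, and Mir23a (−0.04). For Mir221 the neighbours were Mir210, known from the response to low oxygen (0.10), and Mir451a of red blood cells (−0.0047). A neighbour in mean level was not always alike in both libraries. Mir222 lay between Mir137 of neurons (430.5 ± 100 CPM, SD, n = 2) and Mir187 (428.6 ± 96.6 CPM), both higher in replicate 1 where Mir222 was lower. Mir145a lay between Mir217 and Mir19b-2, which is uncertain because miR-19b has several loci.

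Members of a shared locus differed in how far apart their levels were. Mir221 and Mir222 were similar in counts, with 1.44 counts of Mir221 for each count of Mir222 in replicate 1 and 1.61 in replicate 2. Mir221 thus made up 59.1% of the pair in replicate 1 (95% exact interval 57.3 to 60.8) and 61.7% in replicate 2 (60.3 to 63.2). The vessel wall pair was far less even. For each count of Mir145a there were 71.5 counts of Mir143 in replicate 1 and 57.5 in replicate 2. On the log2 scale Mir143 exceeded Mir145a by 5.999 ± 0.22 and Mir221 exceeded Mir222 by 0.61 ± 0.11 (SD, n = 2). Within both pairs the ratio differed between the 2 libraries beyond counting error. The log2 ratio of replicate 1 over replicate 2 was lower for Mir221 than for Mir222 by a difference of −0.16 (two-sided Fisher's exact test on the counts, p = 0.023, adjusted over the 2 pairs 0.038). For Mir143 it exceeded that of Mir145a by 0.31 (two-sided Fisher's exact test, p = 0.038, adjusted 0.038). These tests were added after the values were seen and compare these 2 libraries only. No other gene pair was tested, so no share over all pairs stands beside them, and they are no result about these loci. Among single genes averaging at least 1000 counts, 80.6% differed between the libraries by the exact binomial test described below. Counts were given per hairpin, so the arms of a hairpin cannot be told apart in any of these ratios.

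Between the 2 libraries the endothelial members and Mir143 moved in opposite directions, by small amounts. A two-sided exact binomial test asked of each gene whether its counts were divided between the libraries in proportion to their scaled sizes, and p-values were adjusted over the 401 tested genes by the Benjamini-Hochberg method. It compares these 2 libraries and covers counting error only. The test passed 4 of the 5 members, 3 lower and 1 higher in replicate 1. Over all genes tested 43.4% passed, 23.7% as lower and 19.7% as higher in replicate 1. With deep counts small differences pass: 80.6% of the 170 genes that averaged at least 1000 counts passed, against 16.0% of the 231 others, a division chosen after the values were seen. All 4 members that passed have such deep counts, so their number is no result about vessel miRNAs. In size the members were near the other genes. The absolute log2 ratio had a median of 0.20 for the members and 0.17 for all 401 genes, and no member differed by as much as 1.5-fold.

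Mir221 had 1835 counts in replicate 1 and 2713 in replicate 2, and showed the largest difference of the 5 genes. Its log2 ratio of replicate 1 over replicate 2 was −0.46 (adjusted p = 2e-25, exact binomial test), with a counting interval from −0.55 to −0.37. Mir222, with 1270 and 1683 counts, had a log2 ratio of −0.30 (adjusted p = 6.7e-08, exact binomial test) and an interval from −0.41 to −0.20. Both genes of the chromosome X pair were therefore lower in replicate 1. Sorted by size of the difference, Mir221 was in place 64 and Mir222 in place 109 of the 401 genes.

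Mir126a was lower in replicate 1 by less, with a log2 ratio of −0.17 (adjusted p = 1.3e-153, exact binomial test) and an interval from −0.18 to −0.16. This p rests on 208655 counts in all, and by size its difference was in place 201 of 401. Mir143 was the member that was higher in replicate 1, with 12509 counts there and 11737 in replicate 2. Its log2 ratio was 0.20 (adjusted p = 4e-25, exact binomial test), with an interval from 0.16 to 0.23. Mir145a had a log2 ratio of −0.12 (adjusted p = 0.62, exact binomial test). Its interval ran from −0.42 to 0.18, so at 379 counts in all no difference of Mir145a itself between the libraries was detected. A difference within that interval remains possible.

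**Figure D4:**
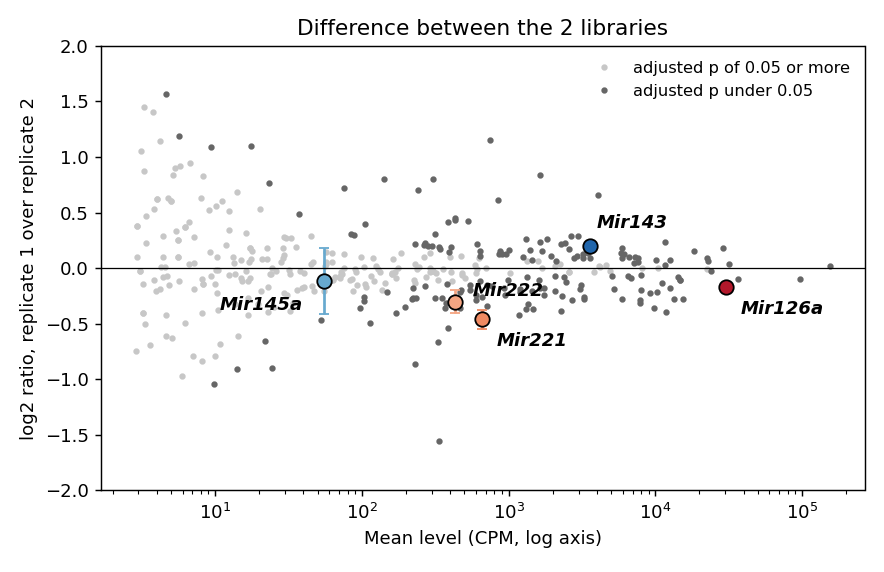
Log2 ratio of replicate 1 over replicate 2 (TMM-scaled, pseudocount 0.5 counts) against mean CPM on a log axis; each point is 1 of 401 genes, 3 of which lie outside the plotted range of 2 on either side of 0. Dark points passed the exact binomial test, light points did not, and bars on the coloured members are 95% counting intervals; Mir143 lies above 0 and the 4 others below it.

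Ratios between members do not depend on how the libraries were scaled. For each count of Mir143 there were 7.56 counts of Mir126a in replicate 1 and 9.72 in replicate 2. On the log2 scale Mir126a exceeded Mir143 by 3.10 ± 0.26 (SD, n = 2). Mir126a exceeded Mir221 by 5.54 ± 0.21, with 51.5 counts for each count of Mir221 in replicate 1 and 42.1 in replicate 2. The ratio of Mir126a to Mir143 was thus lower in replicate 1, a difference between 2 pools that has no replicate of its own. Among the vessel wall members it rests on Mir143. Mir145a had a log2 ratio of replicate 1 over replicate 2 of −0.12 (interval −0.42 to 0.18), on the same side of 0 as Mir126a (−0.17).

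Other cell types of the dissected tissue gave a scale for the vessel levels. Red blood cells travel inside the vessels, and Mir451a is a miRNA they make in large amounts. There were 48.3 counts of Mir126a for each count of Mir451a in replicate 1 and 45.2 in replicate 2, where Mir451a itself had 1958 and 2526 counts. Mir221 was at the level of Mir451a, with 0.937 and 1.07 counts for each count of Mir451a. Mir451a was lower in replicate 1 with a log2 ratio of −0.26 (adjusted p = 5.4e-09, exact binomial test), the same direction as Mir126a, Mir221 and Mir222. Mir144, the other red blood cell gene counted, had a log2 ratio of 0.14 (adjusted p = 0.54, exact binomial test). Of the 5 red blood cell genes listed only these 2 were counted, with a summed share of 0.0661% in replicate 1 and 0.0760% in replicate 2. The part of blood left in the tissue in the lower Mir221, Mir222 and Mir126a of replicate 1 was not tested.

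Mir143 was close in level to Mir214, a miRNA of head mesenchyme, the tissue that surrounds the brain. Mir143 had 12509 and 11737 counts in replicates 1 and 2, against 12503 and 13801 for Mir214. That is 1.00 count of Mir143 for each count of Mir214 in replicate 1 and 0.850 in replicate 2. The other listed mesenchyme genes had mean levels of 3237 CPM (Mir140), 543 CPM (Mir199b), 72.6 CPM (Mir199a-2) and 3.80 CPM (Mir199a-1). Mir199a is annotated at several loci, so its reads may have been given to no gene. All 5 listed mesenchyme genes were counted, with a summed share of 0.785% and 0.757% in replicates 1 and 2. Of these 1 was higher in replicate 1 (Mir140, a cartilage miRNA, log2 ratio 0.13), 1 was lower (Mir199b, −0.19) and 3 did not pass the exact binomial test. The 2 of 5 that passed are near the 43.4% passing over all genes tested. Among genes averaging at least 1000 counts, as Mir214, Mir140 and Mir199b do, 80.6% passed. The part of mesenchyme in the level of Mir143 was not tested.

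Muscle miRNAs other than the vessel pair were scarce. Of 10 listed genes of smooth, heart and skeletal muscle 9 were counted, and together they held 0.00488% of the counts in replicate 1 and 0.00434% in replicate 2. Mir208b and Mir499 of heart muscle had 28.0 ± 1.2 and 10.4 ± 0.064 CPM (SD, n = 2), and 5 genes, among them Mir145b, Mir133a-1 and Mir133a-2, had no count. The mature miRNAs of Mir1a-1 and of both Mir133a genes are made from several loci, so their reads may have been given to no gene. None of the 3 muscle genes with enough counts to be tested passed the exact binomial test, which 16.0% of the genes averaging under 1000 counts passed.

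The 3 endothelial members held 2.998% of the counts in replicate 1 and 3.32% in replicate 2. Among credited reads this was more than each list of miRNAs for other cell types in this paragraph except that of the progenitors. Reads that fit several loci, 30.1% and 28.8% of all reads in replicates 1 and 2, are missing from these shares. Lists that include miRNAs made from several loci may therefore be understated, and how they would rank with those reads was not tested. The list counts that follow stand against 19.7% higher and 23.7% lower in replicate 1 over all genes tested, and against 80.6% passing in either direction among genes averaging at least 1000 counts, which include the leading genes of several lists. Epithelial miRNAs, led by Mir429 and Mir205 (2994 ± 469 and 2600 ± 5.6 CPM, SD, n = 2), held 1.04% and 0.908% of the counts in replicates 1 and 2, with 5 of 7 tested genes higher in replicate 1. Progenitor miRNAs, led by Mir99a and Mir99b (29039 ± 3050 and 22564 ± 1380 CPM), held 7.61% and 6.72%. Of 8 tested genes 6 were higher and none lower in replicate 1 (7 of 8 higher when scaled by total counts or by DESeq2). Mir99a and Mir99b supplied 101575 and 76645 of the 247691 counts of this list in replicate 1. In replicate 2 they supplied 96091 and 77167 of 240036. Mir92b had a mean level of 18228 CPM, against 339 CPM for Mir9-3 and 5.58 CPM for Mir9-2, and Mir9-1 was not counted. Leukocyte miRNAs, led by Mir342 and Mir155 (8107 ± 119 and 399.6 ± 24.7 CPM), held 0.892% and 0.867%. Of 3 tested genes 1 was higher in replicate 1 (2 of 3 with either of those scalings). Mir342 alone supplied 26671 of the 29028 counts of this list in replicate 1 and 28680 of 30974 in replicate 2. Mir223 and Mir150 had mean levels of 281 and 2.40 CPM, Mir142b had no count, and Mir142 and Mir146a were not counted. Hindbrain and trunk miRNAs, led by Mir10a and Mir10b (114.5 ± 26.0 and 92.6 ± 5.5 CPM), held 0.0245% and 0.0309%, of which 2 of 5 tested genes were lower in replicate 1.

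**Figure D5:**
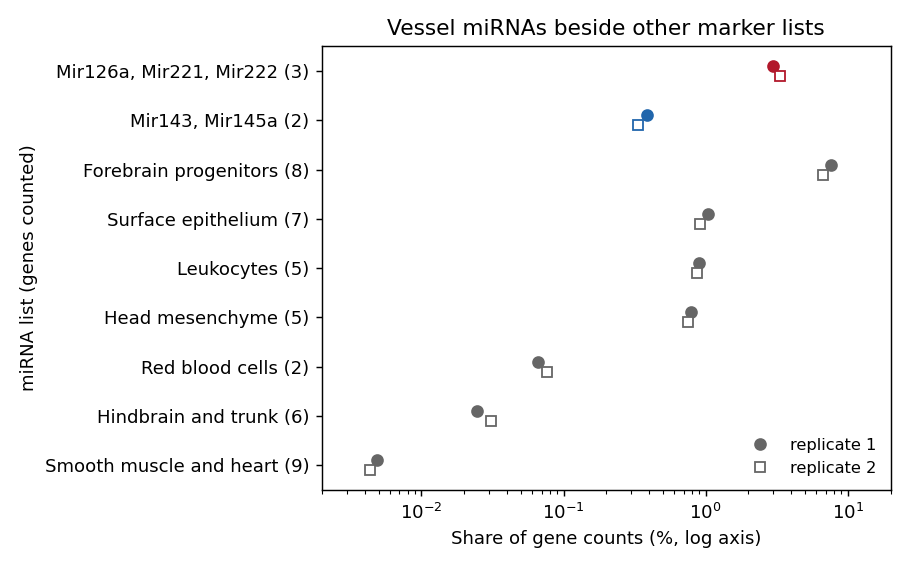
Share of all gene counts held by the endothelial and vessel wall members and by lists of miRNAs known from other cell types, in percent on a log axis, with the number of counted genes in brackets. Filled circles are replicate 1 and open squares are replicate 2. The endothelial members hold 2.998% and 3.32%, below the progenitors and above all other lists shown. Reads that fit several loci are missing from the shares, so lists that include miRNAs made from several loci may be understated.

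Other miRNAs described in endothelial cells or in vessel growth included far more abundant genes that are not particular to vessels. Of 31 such genes listed 28 were counted and all 28 passed the count filter, with a median level of 667 CPM. They held 22.98% of the counts in replicate 1 and 23.43% in replicate 2, led by the cluster mates Mir17 and Mir20a (96278 ± 3351 and 36348 ± 1159 CPM, SD, n = 2), which dividing cells of many kinds express. By the exact binomial test 11 were higher and 7 lower in replicate 1, and 10 did not pass, against 43.4% passing over all genes. Among genes averaging at least 1000 counts, as the leading genes of this list do, 80.6% passed, so these numbers are no result about the list. The median log2 ratio was −0.17 for the 5 vessel genes, against 0.02 for the 28 listed here and −0.03 for all 401 genes. The median of the 5 is the value of Mir126a itself, and they ran from −0.46 (Mir221) to 0.20 (Mir143), so it shows no shared shift. The oxygen-dependent Mir210, which acts in endothelial cells, had 706 and 693 CPM in replicates 1 and 2 and a log2 ratio of −0.0031, which turned to 0.03 when scaled by total counts or by DESeq2 (adjusted p = 0.99 and 0.72, exact binomial test). Mir23a and Mir23b, members of clusters enriched in endothelium, had log2 ratios of 0.13 and 0.18 (adjusted p = 5e-12 and 1.3e-35, exact binomial test), the direction of Mir143 and not of Mir126a. Of their cluster mates, Mir27b was also higher in replicate 1 (0.16, adjusted p = 9e-05, exact binomial test). Mir27a (0.09) and Mir24-2 (−0.0088) did not pass the test, and Mir24-1 was not counted. Mir23b and these mates were picked with their values known. Mir17 and Mir20a (both −0.10), which lead the list, were among its 7 lower genes, the direction of Mir126a.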

How the data were processed

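Small RNA from 2 pooled forebrain samples was analysed as 1 group. The authors deposited raw counts of reads per gene, 1 library per file, for either strand, the strand of the gene and the opposite strand, with no normalization. Per the labels the assembly was mm10, and per the notes deposited with the files the annotation was M4. The name of the aligner, like the trimming and the counting program, is not given in the sources used here. The 4 tallies of reads credited to no gene stayed out of library sizes. Unmapped reads were 24.6% and 25.4% of all reads in replicates 1 and 2, reads mapped to several places 30.1% and 28.8%, and reads outside the genes 7.28% and 8.82%. The labels number the pools as biological replicates of separate biosamples, and with 1 library each the p-values measure only the difference between these libraries.

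The count on the gene strand was used. Symbols and positions came from GENCODE M21 (1894 of 1973 identifiers matched) and sequences from RefSeq (GRCm38.p6). CPM used the sum of gene counts. Log2 ratios used a pseudocount of 0.5 counts and TMM factors of edgeR 4.0.16 (R 4.3.3) from the 401 genes averaging at least 10 counts; for these the exact binomial test was run at an adjusted threshold of 0.05. The quasi-likelihood test of edgeR needs 2 groups and was not run. DESeq2 1.42.0 gave alternative size factors. Python 3.11.15, scipy 1.17.1 and matplotlib 3.10.9 did the rest, and the test was checked on simulated data. Fisher's exact test compared the 2 within-locus ratios between libraries. A count of 0 allows up to 3 counts. The members and lists were chosen with earlier results of these data known. Named genes are the 5 members, the genes next to each in rank, those with a shared seed, overlapping hairpins and the 2 highest of each list. The Mir199 genes, the leukocyte genes below the 2 highest, Mir23b, Mir1a-1 and the Mir133a genes were named after their values were seen. So were Mir92b and the Mir9, Mir24 and Mir27 genes.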

Additional observations from a re-analysis of the deposited data

Results flagged for a closer look

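Opposite-strand reads at the Mir126a hairpin enter only the values recomputed on either strand. They numbered 16 in replicate 1 and 19 in replicate 2, above the 3 counts that a count of 0 allows. They lie where Mir126b is annotated, and 14 of the 401 tested genes had over 3 opposite-strand counts in both libraries.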

How the results depend on the processing

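The test passed the same number of members, 4 of 5 with 1 higher and 3 lower in replicate 1, under total-count scaling, DESeq2 size factors, no filter, a mean count of 100 or more, and counts of either strand. All 25 recomputed log2 ratios of members stayed on the same side of 0 and of the threshold, and Mir221 lay between −0.46 and −0.43. Over all genes 163 to 182 passed, against 174; with total-count scaling 93 were higher and 84 lower, against 79 and 95. Of the lists, only the progenitors, leukocytes and vessel growth genes changed their count under another scaling, each by 1 gene. The share of the 5 genes was 3.52%, 3.40% on either strand, 1.32% with all reads as denominator (a larger total) and 0.471% without Mir126a (fewer genes). Leaving out 1 replicate gave 3.39% to 3.65%. Each member's CPM also fell with all reads as denominator, Mir126a to 11426. No paired analysis was possible because there is 1 group. Depth limits Mir145a, with 379 counts in all.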
